A study of Mus musculus with 3 samples.

Results

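The genes that carry, convert, bind and degrade retinoids were examined in mouse acute myeloid leukaemia (AML) cells in culture. The set comprises 9 genes: Rbp4, Stra6, Lrat, Rdh10, Dhrs3, Aldh1a2, Crabp2, Cyp26a1 and Cyp26b1. They were found by gene name among the non-control probes of the array, where each was read by 1 probe printed as 1 spot, out of 34769 gene and transcript names in all. The HoxA9-Meis1 AML cells came from bone marrow of the C57Bl/6 strain, are named for the homeobox factors Hoxa9 and Meis1, and were kept in SFEM, a serum-free medium. For 24 h they were left untreated, given Pyrydopyrazine A2 at 3.4 µM, or given 10 µM each of retinoic acid (RA, the all-trans form) together with 1α-hydroxy vitamin D3 (D3V). The series sets the expression pattern after either treatment beside the untreated control. Each condition was measured on 1 Agilent 1-colour array, so no difference below has a replicate check and no test was possible.

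Vitamin A reaches cells as retinol bound to the plasma carrier RBP4. The membrane receptor STRA6 takes it up in some tissues, and LRAT stores it as an ester. RDH10 oxidises retinol to retinal, DHRS3 reduces retinal back to retinol, and ALDH1A2 oxidises retinal to retinoic acid. CRABP2 carries retinoic acid to its nuclear receptors, and the cytochromes CYP26A1 and CYP26B1 hydroxylate it for removal. In many tissues retinoic acid raises genes of its own removal, among them Cyp26a1 and Dhrs3. In myeloid cells retinoic acid is known as an inducer of differentiation.

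The treated arrays carry labels on which the sources differ. Each scanner file is named for a treatment, and the authors' deposited value table has a column for each sample. By rank over 62976 spots, the column labelled RA plus D3V equalled the scanner file labelled A2 (Spearman 1), and the column labelled A2 equalled that labelled RA plus D3V (also Spearman 1). The control column of that table had a rank correlation of at most 0.936 with a scanner file, the untreated one. In the value table Cyp26a1 had an intensity of 1331 in the column labelled RA plus D3V, 6.17 in the column labelled A2 and 6.54 in the control column. Cyp26b1 had 2163, 26.9 and 31.1 in the same columns. Below, each array goes by the label of its scanner file, and each direction is that of the array so labelled. Under the value table's labels every statement about a treated array passes to the other treatment.

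All 3 arrays lay on 1 slide and carried 1 scan time. Of 59305 non-control spots, 46.0% to 46.8% were well above background by the scanner software's flag, and none was saturated. Replicate spots of an array had SDs with a median of 0.0606 to 0.0703 on the log2 scale. The untreated array and the value table's control column differed with an SD of 0.284 (log2) over 16994 genes, and the origin of that column is unknown. For the 6 members above background in untreated cells the 2 control sources differed by 0.04 to 0.33. The myeloid identity of the cells was checked with 9 markers, of which 8 were well above background on every array, Meis1 being the exception. The summed level of these was 924 on the untreated array, 466 on the RA+D3V-labelled array and 420 on the A2-labelled array, each times the array's 75th percentile. Mpo was the brightest of them on every array and dominated the sum on the untreated array. It was 2.97-fold and 4.66-fold lower on the treated arrays in that order. Other markers went the other way. Itgam was 4.97-fold and 5.18-fold higher, Kit 1.34-fold and 3.25-fold, and Hoxa9 1.30-fold and 2.28-fold. Ptprc, Elane, Csf1r and Spi1 were within 2-fold on both treated arrays. Of 4 megakaryocyte and platelet markers 2 were above background on each array, with summed levels of 0.676, 20.3 and 11.1 on the untreated, RA+D3V- and A2-labelled arrays. Among them Pf4 was 51.2-fold and 22.7-fold higher and Vwf 3.76-fold and 13.0-fold higher, while Itga2b and Gp9 were below background throughout. Of 6 T and NK cell markers 4, 3 and 4 were above background (summed levels 6.86, 4.56 and 4.50), of 5 erythroid markers 3, 2 and 4 (3.83, 2.25 and 2.23), and of 4 B cell markers 3 on each array (0.932, 0.978 and 1.10). Of 9 stromal, fat and endothelial markers 2, 3 and 4 were above background on the untreated, RA+D3V- and A2-labelled arrays in that order, with summed levels of 2.08, 4.05 and 3.21 times the array's 75th percentile. The fat cell genes Adipoq and Plin1 were not well above background on any array. Of 5 hepatic and stellate cell markers 1, 1 and 0 were above background, and Alb was not on any array. Of 6 dendritic cell markers 3, 3 and 4 (in the same order of arrays) were above background, with summed levels of 101.1, 157.1 and 119.4. The part of these cell types in the results was not tested. In bulk RNA, fewer cells of a type and less RNA per cell cannot be told apart.

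Of the 9 members, untreated cells had 6 well above background, with 5 on each treated array and 3 on all arrays. Levels below are processed signals, an intensity, divided by the 75th percentile of their array and put on the log2 scale, and differences are between such levels of 1 probe. A difference of at least 2-fold was counted. Where a probe was well above background on 1 side only, the fold is called a bound. The dim array was set at the higher of the probe's own signal and its lowest signal well above background from any probe. Where the probe's own signal was the higher, the fold is a plain ratio and not a minimum.

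On the A2-labelled array the degradation genes Cyp26a1 and Cyp26b1 and the retinal reductase gene Dhrs3 were higher than on the untreated array, and the retinol carrier gene Rbp4 and the retinol dehydrogenase gene Rdh10 were lower. Of 7 members with a value or bound, 3 were at least 2-fold higher and 2 were lower. Over all 19381 genes and transcripts with one, the shares were 8.68% higher and 7.81% lower, or 16.5% in all. The members were chosen with earlier results of these data known, so nothing is read from how their shares compare with these. The calls of Cyp26a1, Rbp4 and Rdh10 were bounds, from probes well above background on 1 side only, and that of Rdh10 was a plain ratio. With signal required above background on all 3 arrays, 1 of 3 members was past 2-fold. On the RA+D3V-labelled array, Dhrs3 was higher to a smaller extent, and Rbp4 and Aldh1a2, the gene of the enzyme that makes retinoic acid, were lower. There 1 of 6 members was at least 2-fold higher and 2 were lower, against shares of 9.48% and 5.93% over all 19395 genes, or 15.4% in all. With quantile normalization of the arrays, 51.4% of all calls in that comparison were higher, against 61.5% as scaled here. Between the treated arrays, 4 of 7 members were at least 2-fold higher on the A2-labelled array and 1 was lower, against 4.25% and 5.28% over all 19249 genes, or 9.53% in all. All 3 comparisons draw on the same 3 arrays, so they are not independent of each other.

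**Figure D1:**
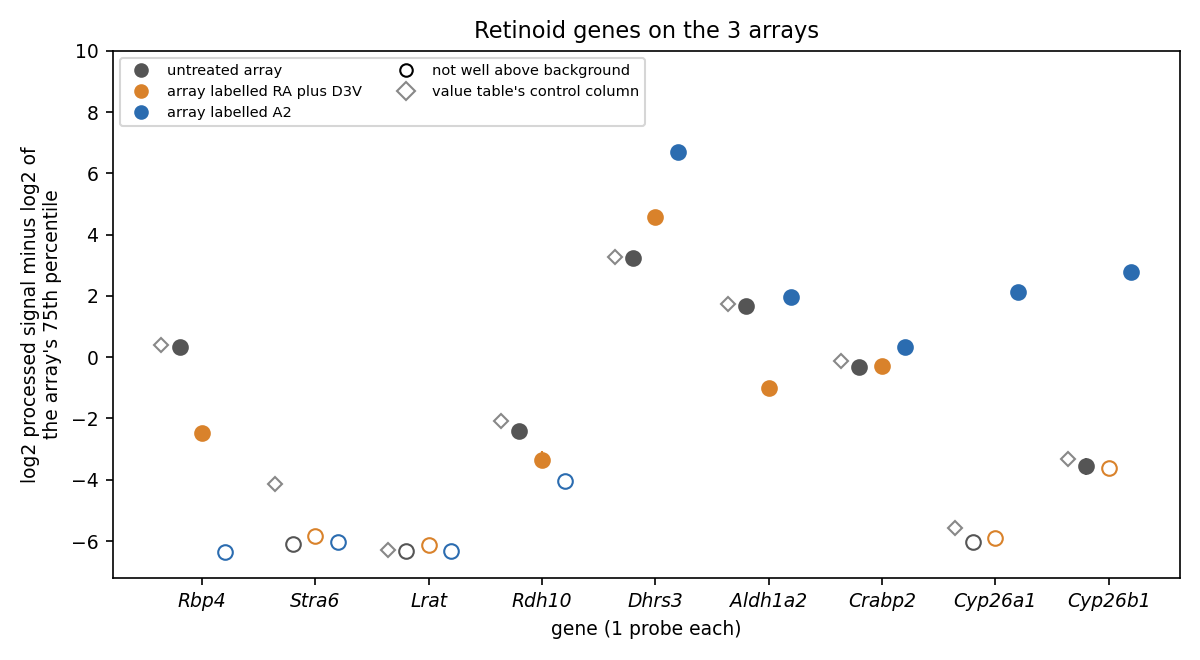
Level of each gene on the 3 arrays, as the log2 ratio of its processed signal to the 75th percentile of that array. Each point is 1 spot, bars on filled points are the scanner software's error of the signal (mostly smaller than the point), open circles were not well above background, and diamonds are the value table's control column. Cyp26a1 was above background only on the A2-labelled array, at 2.11, and Rbp4 lay at 0.34, -2.46 and -6.35 on the untreated, RA+D3V and A2 arrays.

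Cyp26a1 encodes the hydroxylase that clears retinoic acid in embryos and in many cells exposed to it. Its promoter is shown because it was the member that went from below background to a bright signal. The promoter stretch holds a direct repeat of the kind that retinoic acid receptors bind, in capitals, on the minus strand relative to the gene.
Cyp26a1, bases before the start, chr19:37697558-37697807, plus strand: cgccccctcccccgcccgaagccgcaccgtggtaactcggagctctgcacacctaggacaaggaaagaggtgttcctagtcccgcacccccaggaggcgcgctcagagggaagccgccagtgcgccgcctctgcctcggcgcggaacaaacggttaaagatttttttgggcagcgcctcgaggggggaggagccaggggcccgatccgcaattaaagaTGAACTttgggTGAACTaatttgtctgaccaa
Cyp26a1 repeat on the other strand: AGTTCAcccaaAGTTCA
The promoter is RefSeq's, on build GRCm38.p6. The array probe lies at chromosome 19, 37775566 to 37775625 on mm9. The repeat units searched were AGGTCA and, as variants, AGTTCA, then GGGTCA, and lastly GGTTCA, each followed in the same direction by any of these units after a spacer of 1, 2 or 5 bases, on both strands. The window ran from 250 bases before to 50 after the start. The match in Cyp26a1 had a spacer of 5, spanned 17 bases from 32 to 16 bases before the start and overlapped no other match. A repeat with that spacer was present in 32 of 32851 windows of all genes (0.0974%), and any of the 3 spacings in 193 (0.588%). For 7 members the table held 13 windows, and the Cyp26a1 window was the 1 with a match. Rdh10 and Crabp2 were not matched in the table.

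The Cyp26a1 spot had a processed signal of 5.46 on the untreated array, 4.83 on the RA+D3V-labelled array and 1186 ± 119 (the scanner software's error) on the A2-labelled array. Before background removal the spot's mean intensity was 37.2, 41.1 and 1141, beside local backgrounds of 29, 29 and 26. Only the spot on the A2-labelled array was well above background. The fold was at least 78.7 against the untreated array and at least 68.5 against the RA+D3V-labelled array. Between the untreated and RA+D3V-labelled arrays, both below background, no fold could be given. With normexp background correction the bound against untreated cells was 4.12 on the log2 scale in place of 6.30. Against the value table's control the difference was 7.66, taken at that control's own dim intensity of 6.54, so it is not a minimum.

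Cyp26b1 encodes a related retinoic acid hydroxylase. Its processed signal was 30.4 ± 5.9 on the untreated array, 23.5 ± 5.4 on the RA+D3V-labelled array and 1904 ± 190 on the A2-labelled array (probe at chromosome 6, 84521952 to 84522011, mm9). The error ranges of the untreated and RA+D3V-labelled arrays overlapped, and the latter was not well above background. The A2-labelled array stood far above both. Its log2 difference from the untreated array was 6.35 ± 0.31 (combined scanner error), or 81.8-fold, and 4.60 with normexp. By the dim spot's own signal, Cyp26b1 was 86.1-fold higher on the A2-labelled array than on the RA+D3V-labelled array, a plain ratio and not a minimum. The third member of that family, Cyp26c1, stayed below background on every array.

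**Figure D2:**
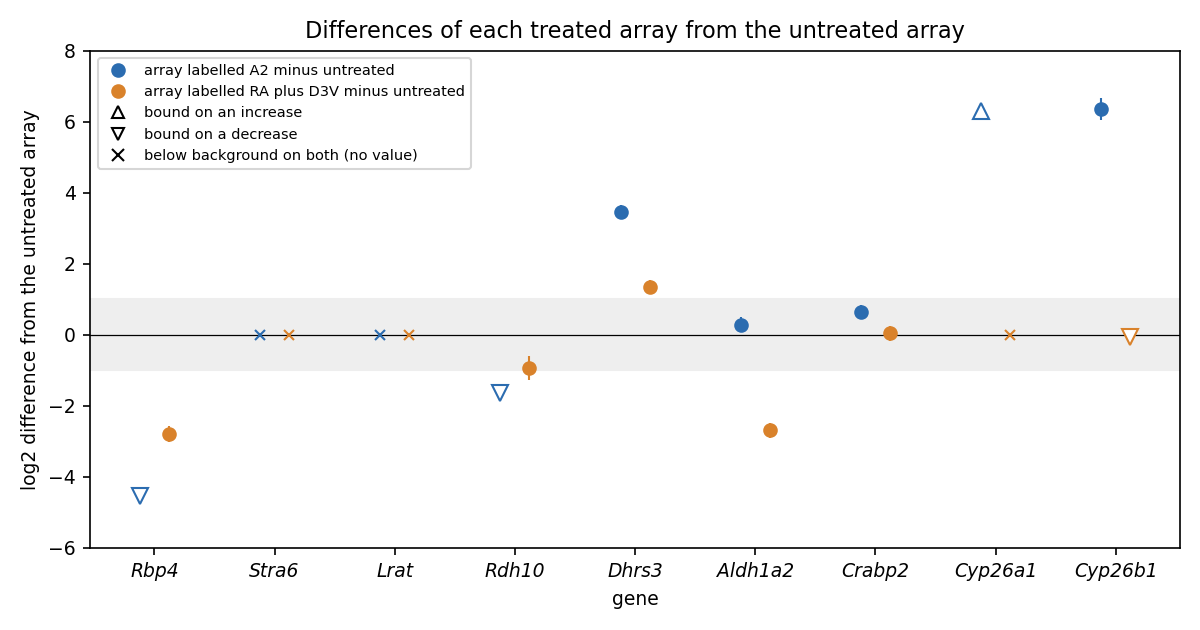
Log2 difference of each treated array from the untreated array for the 9 genes, ordered from transport to degradation. Circles are measured differences with the combined scanner error, triangles are bounds, crosses mark genes below background on both arrays, and the grey band spans 2-fold either way; both treatments share the untreated array. On the A2-labelled array the Cyp26 genes lay above 6, and on the RA+D3V-labelled array Rbp4 and Aldh1a2 lay at -2.80 and -2.69.

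Dhrs3, the retinal reductase gene, was the member that was higher on both treated arrays. Its processed signal was 3356 ± 336 on the untreated array, 6928 ± 693 on the RA+D3V-labelled array and 28304 ± 2830 on the A2-labelled array (chromosome 4, 144517485 to 144517544, mm9). The 3 signals were ordered without overlap of their errors. The log2 difference from the untreated array was 3.46 ± 0.20 on the A2-labelled array, or 11.0-fold, and 1.35 ± 0.20 on the RA+D3V-labelled array, or 2.54-fold. Between the treated arrays it was 2.12 ± 0.20. The control sources differed by 0.04 for this gene.

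Rdh10, which acts in the opposite direction on retinol, had a dim probe. Its processed signal was 67.9 ± 8.5 on the untreated array, 28.6 ± 5.6 on the RA+D3V-labelled array and 16.6 ± 4.3 on the A2-labelled array (chromosome 1, 16122062 to 16122121, mm9). The spot on the A2-labelled array was not well above background. By that spot's own signal the gene was 3.13-fold lower there than on the untreated array, a plain ratio and not a minimum. The difference on the RA+D3V-labelled array was -0.94 ± 0.33, just inside the 2-fold limit. These values depend on the background: with normexp the bound on the A2-labelled array was -0.37, which ended the call, and the other difference was -0.29. Against the value table's control the RA+D3V-labelled array was past 2-fold lower, at -1.23, and with quantile normalization it was at -1.19.

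Aldh1a2 encodes the main retinaldehyde dehydrogenase of the embryo and is also expressed by some dendritic cells and macrophages. Its processed signal was 1145 ± 115 on the untreated array, 143.9 ± 15.0 on the RA+D3V-labelled array and 1070 ± 107 on the A2-labelled array (chromosome 9, 71143931 to 71143990, mm9). The RA+D3V-labelled array stood apart from the other arrays, at -2.69 ± 0.21 from the untreated array, or 6.46-fold lower. After scaling, the A2-labelled array was higher than the untreated array by 0.29 ± 0.20, close to the SD between the control sources, although its unscaled signal was lower. Between the treated arrays the difference was 2.98 ± 0.21, or 7.89-fold. Its relatives in the wider list were dim: Aldh1a3 was not above background on any array, and Aldh1a1 was above it on the A2-labelled array alone, at a level of -3.81. Of the dendritic cell markers, Zbtb46 and Xcr1 were not above background on any array, and Clec9a was above it on the A2-labelled array alone. Flt3, which progenitors also express, was 3.47-fold lower on the RA+D3V-labelled array and 4.86-fold lower on the A2-labelled array, on its brightest probe. Another Flt3 probe was above background on the untreated array alone, at -2.77, and a further probe on the A2-labelled array alone, at -3.67. Itgax was within 2-fold on both treated arrays, as was Siglech, whose bright probe makes up nearly all of the summed level of that list. The other Siglech probes were not above background on any array. The part of such cells in the Aldh1a2 values was not tested.

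Rbp4, the gene of the plasma retinol carrier, is expressed chiefly in liver and fat. Its processed signal was 452.8 ± 45.5 on the untreated array, 52.9 ± 6.7 on the RA+D3V-labelled array and 3.37 on the A2-labelled array (chromosome 19, 38191120 to 38191179, mm9). The 3 arrays were ordered, with the spot on the A2-labelled array not well above background. The gene was 6.95-fold lower on the RA+D3V-labelled array, a log2 difference of -2.80 ± 0.23, and at least 23.1-fold lower on the A2-labelled array. Between the treated arrays it was at least 3.32-fold lower on the A2-labelled array. With normexp the differences from the untreated array were -1.85 and a bound of -2.50, and the bound between the treated arrays was -0.65, inside 2-fold. The value table's control lay 0.05 from the untreated array, and its columns kept the order, with 408.8 in the control column and 56.9 and 3.90 in those that matched the RA+D3V- and A2-labelled arrays.

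Stra6, the receptor for RBP4, and Lrat, which esterifies retinol, were not well above background on any array. Their processed signals lay between 4.19 and 5.28 and between 3.44 and 4.47, each with a scanner error as large as the signal, so no fold is given. Each is read by 1 probe, and RNA that lacks the probed stretch would not be seen. The value table's control column held 17.7 for Stra6 against 7.36 and 6.99 in its treated columns.

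Crabp2, the retinoic acid carrier gene, was within 2-fold throughout. Its processed signal was 287.7 ± 29.1 on the untreated array, 240.4 ± 24.4 on the RA+D3V-labelled array and 343.9 ± 34.6 on the A2-labelled array (chromosome 3, 87757207 to 87757266, mm9). After scaling, the differences from the untreated array were 0.64 ± 0.21 on the A2-labelled array and 0.04 ± 0.21 on the RA+D3V-labelled array. The first was larger than the SD between the control sources and the second was within it.

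**Figure D3:**
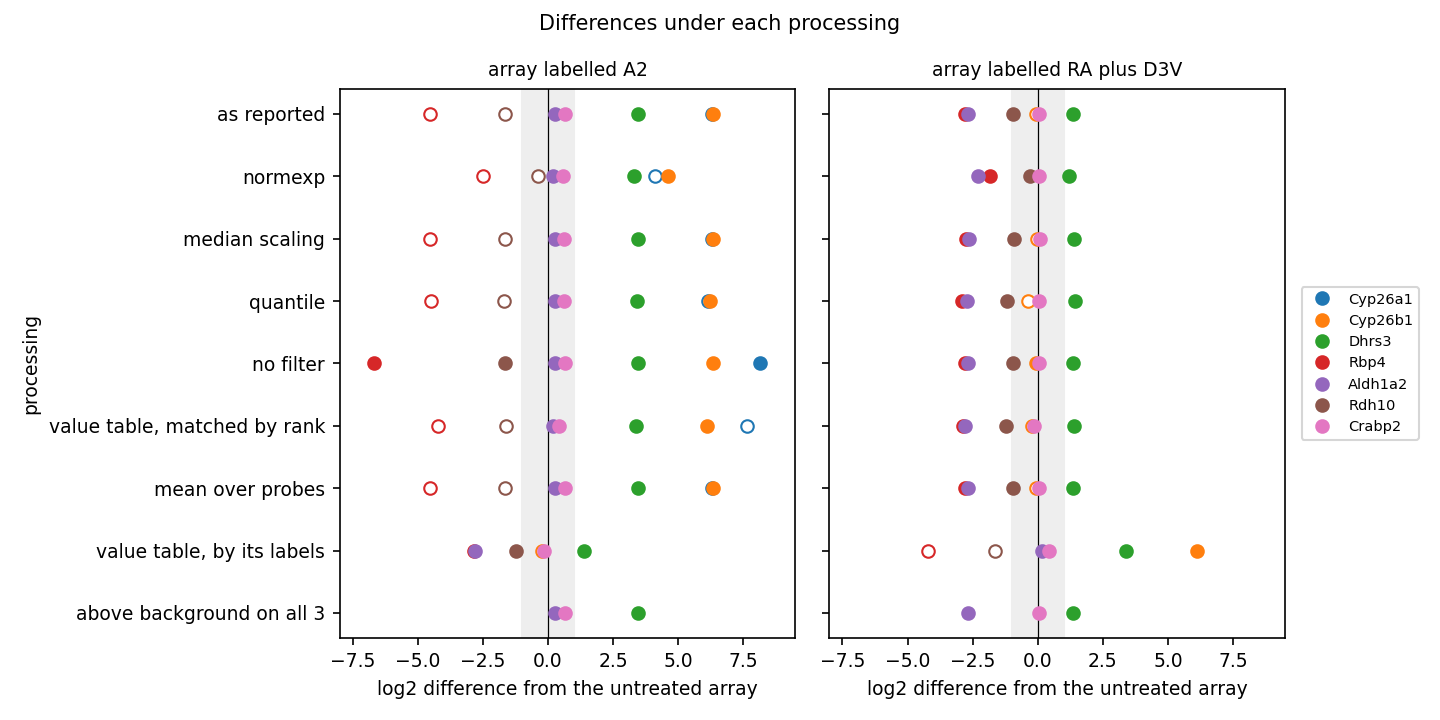
Log2 difference of each treated array from the untreated array for the 7 genes with a value, under each processing; filled points are measured and open points are bounds, and genes without a reported value in a comparison are not shown. Differences past 2-fold kept their direction in all rows but that of the value table by its own labels, where the panels exchange their patterns. Normexp drew the dim genes toward 0.

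The member probes were checked for runs of alternating G and T. The longest such run in any member's probe was 6 bases, and the G and C content of the 9 probes was 35% to 50%.

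A wider list of 40 other genes that handle retinoids was set beside the members. In the comparison of the A2-labelled array with the untreated array 24 had a value or bound. Of these, 2 were at least 2-fold higher, beside 8.68% over all genes, and 1 was lower, beside 7.81%. The median of measured genes was 0.06, against -0.03 over all genes. In the comparison of the RA+D3V-labelled array with the untreated array, 2 of 23 were higher, beside 9.48%, and 1 was lower, beside 5.93%. The median there was -0.06, against -0.03 over all genes. Between the treated arrays 3 of 24 were higher on the A2-labelled array, beside 4.25% over all genes, and 1 was lower, beside 5.28%.

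Stra6l, which in mice encodes a second receptor for RBP4 related to STRA6, had levels of -3.13, -1.07 and 0.20 on the untreated, RA+D3V and A2 arrays. It was higher on both treated arrays, by 2.06 and 3.34 on the log2 scale. With normexp the differences were 1.15 and 2.13, and the one between the treated arrays moved from 1.28 to 0.98, just inside 2-fold. Dgat1, an acyltransferase that makes triglycerides and can also esterify retinol, had levels of 0.52, 1.21 and 4.52, and the A2-labelled array stood apart at 16.0-fold over untreated. Fabp5, a fatty acid carrier that can also bind retinoic acid, had levels of 7.19, 8.25 and 6.83. It was just past 2-fold higher on the RA+D3V-labelled array (1.06, just under the limit with normexp and 0.93 against the value table's control, which end the call) and within 2-fold on the A2-labelled array (-0.36). Akr1b8, an aldo-keto reductase, differed by 0.90 on the A2-labelled array and by -0.67 on the RA+D3V-labelled array, so that the treated arrays lay 1.57 apart. Rdh1 was lower on both, with differences of -3.93 on the A2-labelled array and -3.79 on the RA+D3V-labelled array, and its probe holds a run of 11 alternating G and T bases. With normexp these were -2.32 and -2.24, and against the value table's control -3.03 and -3.11. The other retinol dehydrogenases with a value, Rdh5, Rdh9, Rdh11, Rdh12, Rdh13 and Rdh14, stayed within 2-fold on both treated arrays.

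**Figure D4:**
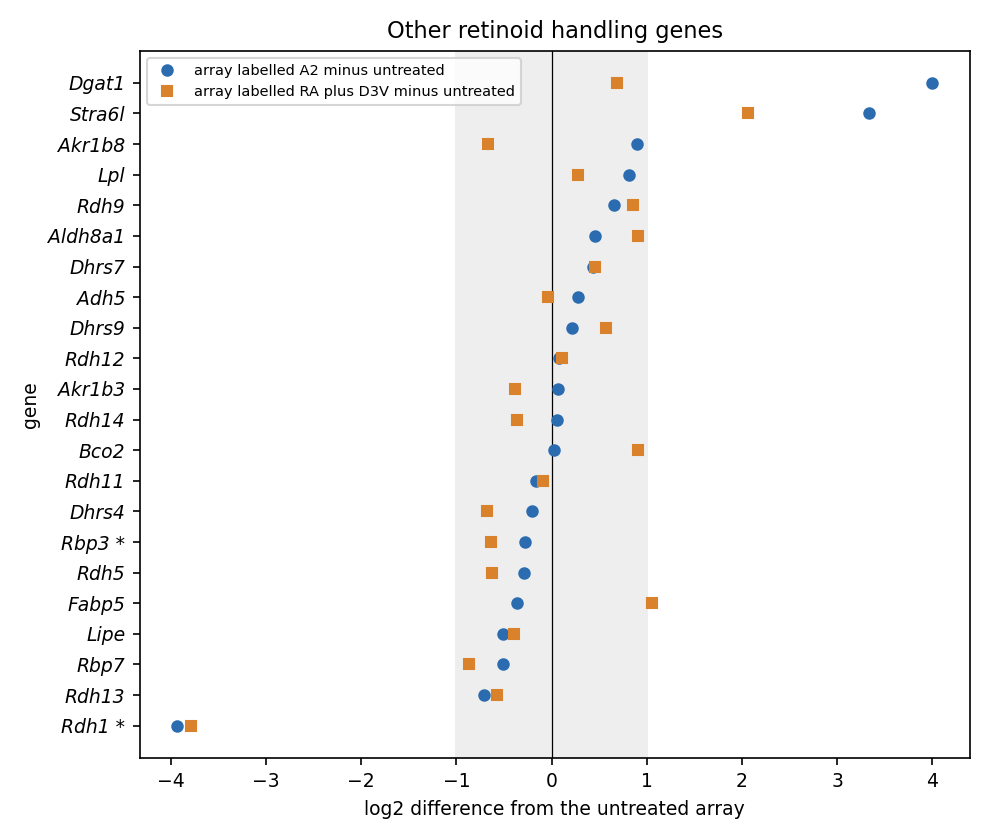
Log2 differences from the untreated array for the genes of the wider list measured on all 3 arrays, circles for the A2-labelled array and squares for the RA+D3V-labelled array. The grey band spans 2-fold either way and an asterisk marks a probe with at least 8 alternating G and T bases; Dgat1 (16.0-fold) and Stra6l (3.34 on the log2 scale) stood out upward on the A2-labelled array and Rdh1 downward on both.

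Among 7 receptor genes, Rarg was at least 2-fold lower on the A2-labelled array (-1.07, and -0.95 with normexp, inside the limit), and the other 5 with a value were within 2-fold, beside 8.68% higher and 7.81% lower over all genes. On the RA+D3V-labelled array, 0 of 6 receptor genes differed by 2-fold, beside 9.48% higher and 5.93% lower over all genes. Of 13 genes known to respond to retinoic acid outside its metabolism, 5 of 11 with a value or bound were at least 2-fold higher on the A2-labelled array: the transglutaminase Tgm2 (6.83), the cofactor Nrip1 (5.27), the repressor Hic1 (5.25), Cd38 (5.03) and the interleukin 1 receptor antagonist Il1rn (a bound of 1.72). None of the 11 was lower by that much. The shares over all genes were 8.68% and 7.81%. The target list was written with earlier results of these data known, so nothing is read from how its counts or median compare with all genes. With normexp the values were 6.42 for Tgm2, 4.24 for Nrip1, 3.78 for Hic1 and 4.36 for Cd38. Asb2 was within 2-fold on the probe counted, and its other probe was above background on the A2-labelled array alone, at a level of -0.02 against -6.16 on the untreated array. The bound of Il1rn was 0.72 with normexp and 0.83 against the value table's control, both inside 2-fold. On the RA+D3V-labelled array, 0 of 9 were higher and 1 was lower, beside 9.48% and 5.93% over all genes. It was Hic1, with a bound of -1.04 that was -0.22 with normexp and -0.90 against the value table's control. Tgm2 differed there by -0.74. The median of the measured genes of that list was 0.71 on the A2-labelled array and 0.11 on the RA+D3V-labelled array, against -0.03 over all genes in each. Cyp24a1, the hydroxylase of vitamin D, was above background on the A2-labelled array alone, with a bound of 10.3 (log2) over untreated cells that was 8.18 with normexp. Tgm2 and Cyp24a1 were named as checks on the labels. Under the value table's labels their bright signals belong to RA plus D3V, and which labels are right was not settled.

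For the 3 members measured on all arrays, the genes with the most similar pair of differences from the untreated array were found by Euclidean distance over those 2 differences, which share the untreated array. For Dhrs3 these were Gpr137b-ps (distance 0.05), Fblim1 (0.13) and Aldh3b1 (0.29) among 11490 genes. For Aldh1a2 they were H1f10 (0.36), Plcb1 (0.42) and Rbpms2 (0.73), and for Crabp2 Eif2d (0.01), Nceh1 (0.02) and Sppl2a (0.02). Aldh1a2 had no gene as near as those of the other members.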

How the data were processed

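Total RNA of 3 samples of cells was labelled with Cy3 and hybridised to 3 arrays, per the labels. Per the submitters' processing notes, the scans were read with Agilent Feature Extraction 11.5.1.1. Per the file headers, the processed intensity of a spot is free of background and spatial trend and is not scaled between arrays, and flags of 0 or 1 say whether it is saturated, uneven or well above background. The value table that the authors deposited gives linear intensity; sorted, its 3 columns were equal (99.9% of values within 0.01%), as quantile normalization leaves them, and its other steps are not given in the sources used here.

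Control spots and 25 uneven probes, none of a member, were left out. Levels were set relative to each array's 75th percentile on the log2 scale and averaged over spots of a probe, which was called well above background when all its spots were. Probes were named through RefSeq accession, symbol or synonym (22365 of 34769 names were in that table). A gene with several probes was read on the probe of highest mean level. The scanner software's error covers the spot alone, not cultures. With 1 array per condition no test was run. Named genes were all members, up to 4 highest and 4 lowest genes of each list past 2-fold, Tgm2, Cyp24a1, and the 3 genes nearest in pattern to each member measured on all arrays; others were chosen after their values were seen. Members and lists were chosen with earlier results of these data known. 1 gene of the retinoic acid target list is not reported here. The step that compares 2 arrays was tested on simulated data with known changes. Gene naming, the choice of probe, the alternatives and the promoter search were not. RefSeq promoter windows are of build GRCm38.p6. Alternatives were normexp (limma 3.58.1, offset 50), median or quantile scaling, other filters, a 4-fold limit, the mean over probes and the value table. Python 3.11.15, numpy 2.4.6 and pandas 2.3.3 were used.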

Additional observations from a re-analysis of the deposited data

How the results depend on the processing

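The count of members past 2-fold stayed within 1.5 times of the reported 5, 3 and 5 (A2-labelled array against untreated, RA+D3V-labelled array against untreated, and A2 against RA plus D3V) except in 3 cases. Requiring signal above background on all 3 arrays left 3 members and gave 1 in the first and 2 in the third comparison. The value table by its own labels gave 5 in the second. Under those labels the following log2 differences that were past 2-fold as reported changed sign. A2 against untreated: Cyp26b1 -0.22, Hic1 -0.90, Nrip1 -0.32, Rarg 0.27 and Tgm2 -0.58. RA plus D3V against untreated: Aldh1a2 0.18, Fabp5 -0.57 and Hic1 5.24. A2 against RA plus D3V: Cyp26a1 -5.94, Cyp26b1 -6.33, Dhrs3 -1.99, Rbp4 1.36, Aldh1a2 -2.98, Akr1b8 -1.56, Cd38 -4.61, Cyp24a1 -9.91, Dgat1 -3.31, Fabp5 1.50, Hic1 -6.13, Il1rn -1.52, Nrip1 -5.87, Rarg 1.36, Stra6l -1.29 and Tgm2 -7.55. Differences within 2-fold as reported also changed sign under those labels. In the first comparison Aldh1a2 moved to -2.80, Crabp2 to -0.16, Akr1b8 to -0.83 and Fabp5 to 0.93, in the second Tgm2 to 6.97, Cyp26b1 to 6.11, Nrip1 to 5.56, Rarg to -1.09 and Akr1b8 to 0.73, and in the third Rdh10 to 0.40 and Crabp2 to -0.58. Those columns equal the other scanner file by rank, so the exchange follows from the labels. No member past 2-fold changed sign under the other alternatives. With normexp 12 of 19 member differences moved by more than the SD between the control sources, with quantile normalization 1 of 20, and with median scaling 0 of 20. Calls over all genes, 3196, 2990 and 1834 in the 3 comparisons, were 1809, 1395 and 895 with normexp, 6389, 6510 and 4725 with no filter, and 736, 439 and 423 at 4-fold. The lowest levels flagged well above background were -4.19, -3.99 and -4.19 in the order untreated, RA+D3V, A2. A probe so flagged on 1 array of a comparison gives at most a bound, and a probe flagged on neither gives no value. No paired analysis was possible because each condition has 1 array.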

Other observations

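The windows of 31 genes held a direct repeat with a spacer of 5 like that of Cyp26a1, and 11 of these genes were on the array. Beside Cyp26a1, 5 had a value or bound against the untreated array. On the A2-labelled array the platelet chemokine Ppbp was at least 140-fold higher, the B cell survival factor Tnfsf13b 9.41-fold, the biliverdin reductase Blvrb 4.63-fold and the protease Prss27 3.28-fold, and Cfap45 was within 2-fold (0.33 on the log2 scale). On the RA+D3V-labelled array Ppbp was at least 40.95-fold higher, Tnfsf13b 4.06-fold and Blvrb 2.40-fold, and Prss27 (0.18) and Cfap45 (a bound of -0.51) were within 2-fold. Between the treated arrays Ppbp was 3.41-fold, Prss27 2.89-fold and Tnfsf13b 2.32-fold higher on the A2-labelled array, and Blvrb and Cfap45 were within 2-fold. The repeat was shown because Cyp26a1 was higher, and Ppbp, below background in untreated cells, has a bound only because it was bright on the treated arrays. The number of such genes that were higher is therefore partly set by the choice, and nothing is read from it.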
